A study of Homo sapiens with 14 samples.

Results

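The 44 genes described here act in the repair of broken or damaged DNA and in the checkpoint that such damage sets off, out of 24461 named genes in the deposited expression tables. They were listed by gene name, with no threshold on values but with earlier results of these data known, and all 44 were found in both tables. They were split by role into 20 genes of homologous recombination, 10 of end joining, 7 of base excision and single-strand break repair, and 7 of checkpoint signalling. Transcripts were read in 12 RNA-seq libraries from the human glioblastoma line U251MG, labelled wild type throughout. There were 3 libraries of control cells and 3 of radioresistant cells, the latter given X-rays in 30 daily fractions of 2 Gy, 60 Gy in sum. Radioresistant cells that carried a short hairpin RNA labelled shNC, the comparison hairpin, stood beside radioresistant cells with shIFI16, a hairpin against IFI16, again with 3 libraries each. ATAC-seq, which marks open chromatin, was done on 1 control and 1 radioresistant library. The stated aim was to learn what the DNA sensor IFI16 does in radioresistant glioblastoma cells. Both hairpin groups shared the irradiation history, and no other hairpin and no rescue is named, so effects of IFI16 loss and other differences between the hairpin populations cannot be told apart.

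Homologous recombination copies the intact sister chromatid to mend a break, and it works in S and G2 phase, after the ends have been trimmed to single strands. End joining ligates the ends directly at any phase: the Ku ring (XRCC5 and XRCC6) holds them, the kinase PRKDC binds Ku, and XRCC4 with LIG4 seals them, while TP53BP1 and RIF1 shield ends from trimming and POLQ joins ends that were trimmed a little. Base excision removes damaged bases and mends nicks, and the kinases ATM and ATR report damage to CHEK2 and CHEK1, which stop the cell cycle. These pathways are widely studied in glioblastoma because X-rays kill cells mainly through breaks.

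Values are in TPM, transcript counts scaled for length and then to 1000000 in every library. TPM keeps no sequencing depth, so the depth behind each value is unknown. Changes are differences of mean log2(TPM + 1), tested with limma over all genes, and a gene is called changed at a Benjamini-Hochberg adjusted p under 0.05. Columns of the tables carry codes whose groups were inferred. Low IFI16 in the shIFI16 libraries went with that reading, while the control and radioresistant columns had no such check. IFI16 stood at 126, 139.6 and 127 TPM with shNC and at 7.68, 7.90 and 6.71 TPM with shIFI16, a fall of 3.97 on the log2 scale (SE 0.09, limma adjusted p = 4.4e-14). In the other table it stood at 70.3, 71.1 and 49.6 TPM in control and at 250.8, 309 and 243 TPM in radioresistant libraries. Nothing in the labels says that replicates were separate cultures, so p-values measure the spread between libraries, which may be technical. Between 12361 and 13016 genes reached 1 TPM in a library. All 5 glial markers were lower in every radioresistant than in any control library. GFAP, the astrocyte filament gene, was at 3882 to 4079 TPM in control and 56.2 to 102 TPM in radioresistant libraries, S100B at 5.92 to 10.5 and 0.0704 to 0.611, VIM at 8757 to 8878 and 5498 to 5921, NES at 238.5 to 308 and 96.2 to 119, and SOX2 at 347 to 497 and 130.4 to 171 TPM. In the hairpin table GFAP was at 1.37 to 2.06 TPM with shNC and 30.1 to 33.0 TPM with shIFI16, S100B and SOX2 were also higher and VIM and NES lower in every shIFI16 than in any shNC library. The part of these differences in the changes of the 44 genes was not tested. Of the 4 immune markers PTPRC stayed at or under 0.0864 TPM and CD3E was listed at 0 throughout. CD68, which other cells also express, ran from 14.0 to 40.2 TPM. CD14 was at 0.443 to 0.891 TPM in control and 0.998 to 1.96 TPM in radioresistant libraries. It was at 0.117 to 0.283 TPM with shNC and 0.0626 to 0.930 TPM with shIFI16. The endothelial markers summed to 0.550 to 10.8 TPM, most of it CDH5, and the summed epithelial and fibroblast markers stayed at or under 2.30 TPM.

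Control replicate 3 stood apart from the other control libraries in these genes. It was the lowest control library for 35 of the 44 genes and the highest for 6 (APEX1, LIG1, OGG1, PARP2, XRCC1 and XRCC3). Radioresistant replicate 1 was the lowest of its group for 30 genes, shNC replicate 3 for 29 and shIFI16 replicate 3 for 34. These counts cover the 44 genes alone, with no share over all genes beside them, so they show nothing particular to these genes. Where leaving out 1 of these libraries changed the call of 1 of the 44 genes, this is given.

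**Figure D1:**
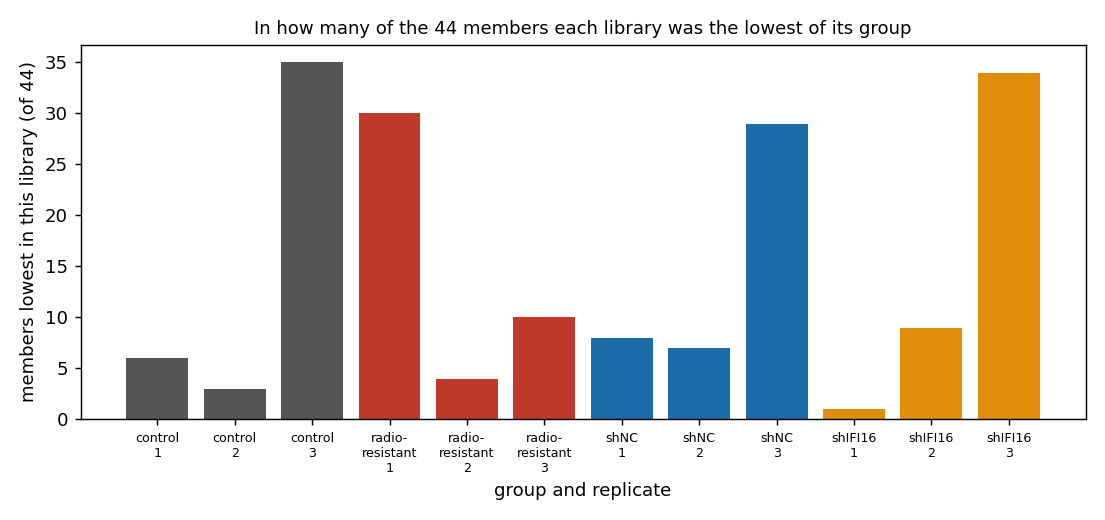
Each bar counts for how many of the 44 genes (vertical axis) a library had the lowest TPM of the 3 libraries of its group, with group and replicate on the horizontal axis. Control replicate 3 reached 35 and shIFI16 replicate 3 reached 34, while shIFI16 replicate 1 reached 1.

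The promoters of 4 genes are shown because they had the largest rise and the largest fall in each comparison among the genes for which RefSeq's table (build GRCh38.p14) gives a promoter. In radioresistant against control cells these were XRCC3 and TP53BP1, and in shIFI16 against shNC they were XRCC2 and CHEK2. The table has no entry for PRKDC, XRCC5, FANCI, NBN and WRN. Each window runs 5′ to 3′ along the gene, from 250 bases before the transcription start to 50 after it, and all 4 genes lie on the minus strand. Capitals mark matches, on either strand, to CCAAT, the box bound by the factor NF-Y (ATTGG on the other strand), to the E2F motif TTCCCGC (on the other strand GCGGGAA), to the ETS motif CGGAAGT and to the NRF1 motif GCATGCG (on the other strand CGCATGC). The 4 windows lie at chr14:103715402-103715701, chr15:43510591-43510890, chr7:152676092-152676391 and chr22:28741771-28742070.
XRCC3: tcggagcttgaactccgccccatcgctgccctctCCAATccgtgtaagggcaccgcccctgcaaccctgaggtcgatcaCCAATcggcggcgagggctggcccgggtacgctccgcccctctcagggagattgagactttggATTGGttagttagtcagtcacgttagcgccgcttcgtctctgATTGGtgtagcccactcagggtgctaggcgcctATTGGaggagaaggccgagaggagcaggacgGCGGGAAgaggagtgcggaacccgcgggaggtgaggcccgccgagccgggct
TP53BP1: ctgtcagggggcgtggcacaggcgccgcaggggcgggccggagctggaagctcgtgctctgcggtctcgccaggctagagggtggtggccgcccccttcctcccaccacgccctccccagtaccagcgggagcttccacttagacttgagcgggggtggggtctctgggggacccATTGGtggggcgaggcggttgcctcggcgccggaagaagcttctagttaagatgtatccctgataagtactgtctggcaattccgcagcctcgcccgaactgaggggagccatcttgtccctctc
XRCC2: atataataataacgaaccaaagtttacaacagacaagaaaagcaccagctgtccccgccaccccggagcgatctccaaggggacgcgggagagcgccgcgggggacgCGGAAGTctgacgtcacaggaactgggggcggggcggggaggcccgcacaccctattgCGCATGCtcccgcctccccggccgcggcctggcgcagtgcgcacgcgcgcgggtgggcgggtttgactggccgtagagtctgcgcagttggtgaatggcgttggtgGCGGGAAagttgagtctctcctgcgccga
CHEK2: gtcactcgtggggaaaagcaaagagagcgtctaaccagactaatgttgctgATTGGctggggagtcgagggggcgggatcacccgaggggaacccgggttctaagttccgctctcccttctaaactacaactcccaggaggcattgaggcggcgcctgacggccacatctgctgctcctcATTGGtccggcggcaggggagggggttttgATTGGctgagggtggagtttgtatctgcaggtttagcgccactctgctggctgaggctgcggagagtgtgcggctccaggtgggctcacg
The XRCC3 window held 5 CCAAT boxes and an E2F motif that begins at base -2 relative to the start. The TP53BP1 window held a CCAAT box at -75 and the CHEK2 window 3 of them, while the XRCC2 window held an ETS motif at -143, an NRF1 motif at -85 and an E2F motif at 21. Among the 39 genes with a promoter in the table, 15 (38.5%) held TTCCCGC against 12.8% of all tested genes with a promoter, and 12 (30.8%) held the ETS motif against 15.9%. The E2F variant TTGGCGC was in 5 (12.8%) against 6.16%, CCAAT in 20 (51.3%) against 44.3%, NRF1 in 4 (10.3%) against 7.85% and the cell-cycle element TTTGAA in 5 (12.8%) against 14.0%. Over all 35116 windows of the table, single windows rather than genes, the shares were 6.55% for TTCCCGC, 3.04% for TTGGCGC, 34.6% for CCAAT, 6.83% for ETS, 3.91% for NRF1 and 15.2% for TTTGAA. These are matches of letters, with no measure of binding.

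In radioresistant cells some of these genes rose and others fell. XRCC3, RAD54L, XRCC6 and POLQ rose by 0.59 to 0.90 on the log2 scale, and TP53BP1 and XRCC4 fell by 0.75 and 0.72. In all, 7 of the 44 genes rose (RAD54L, XRCC3, NBN, FANCA, XRCC6, POLQ and XRCC1), against 16.9% of the 13127 tested genes, and 6 fell (TP53BP1, XRCC4, PRKDC, XRCC5, WRN and OGG1), against 27.0%. Together 29.5% of the 44 were called changed, against a background of 43.9%. The libraries of the groups did not overlap for 12 genes that were higher and 10 that were lower in radioresistant cells, beside 21.5% and 31.7% of all tested genes. All 44 passed the filter on low values. Their median change was -0.05, beside -0.11 over all tested genes. Scaling the libraries by median ratios moved the median of all genes from -0.11 to 0.01 and that of these genes to 0.07, and 14 then rose and 5 fell, the added rises being BRCA2, PALB2, EXO1, RAD51D, PARP2, APEX1 and CHEK2. In bulk RNA, fewer cells of a kind and less RNA per cell cannot be told apart.

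**Figure D2:**
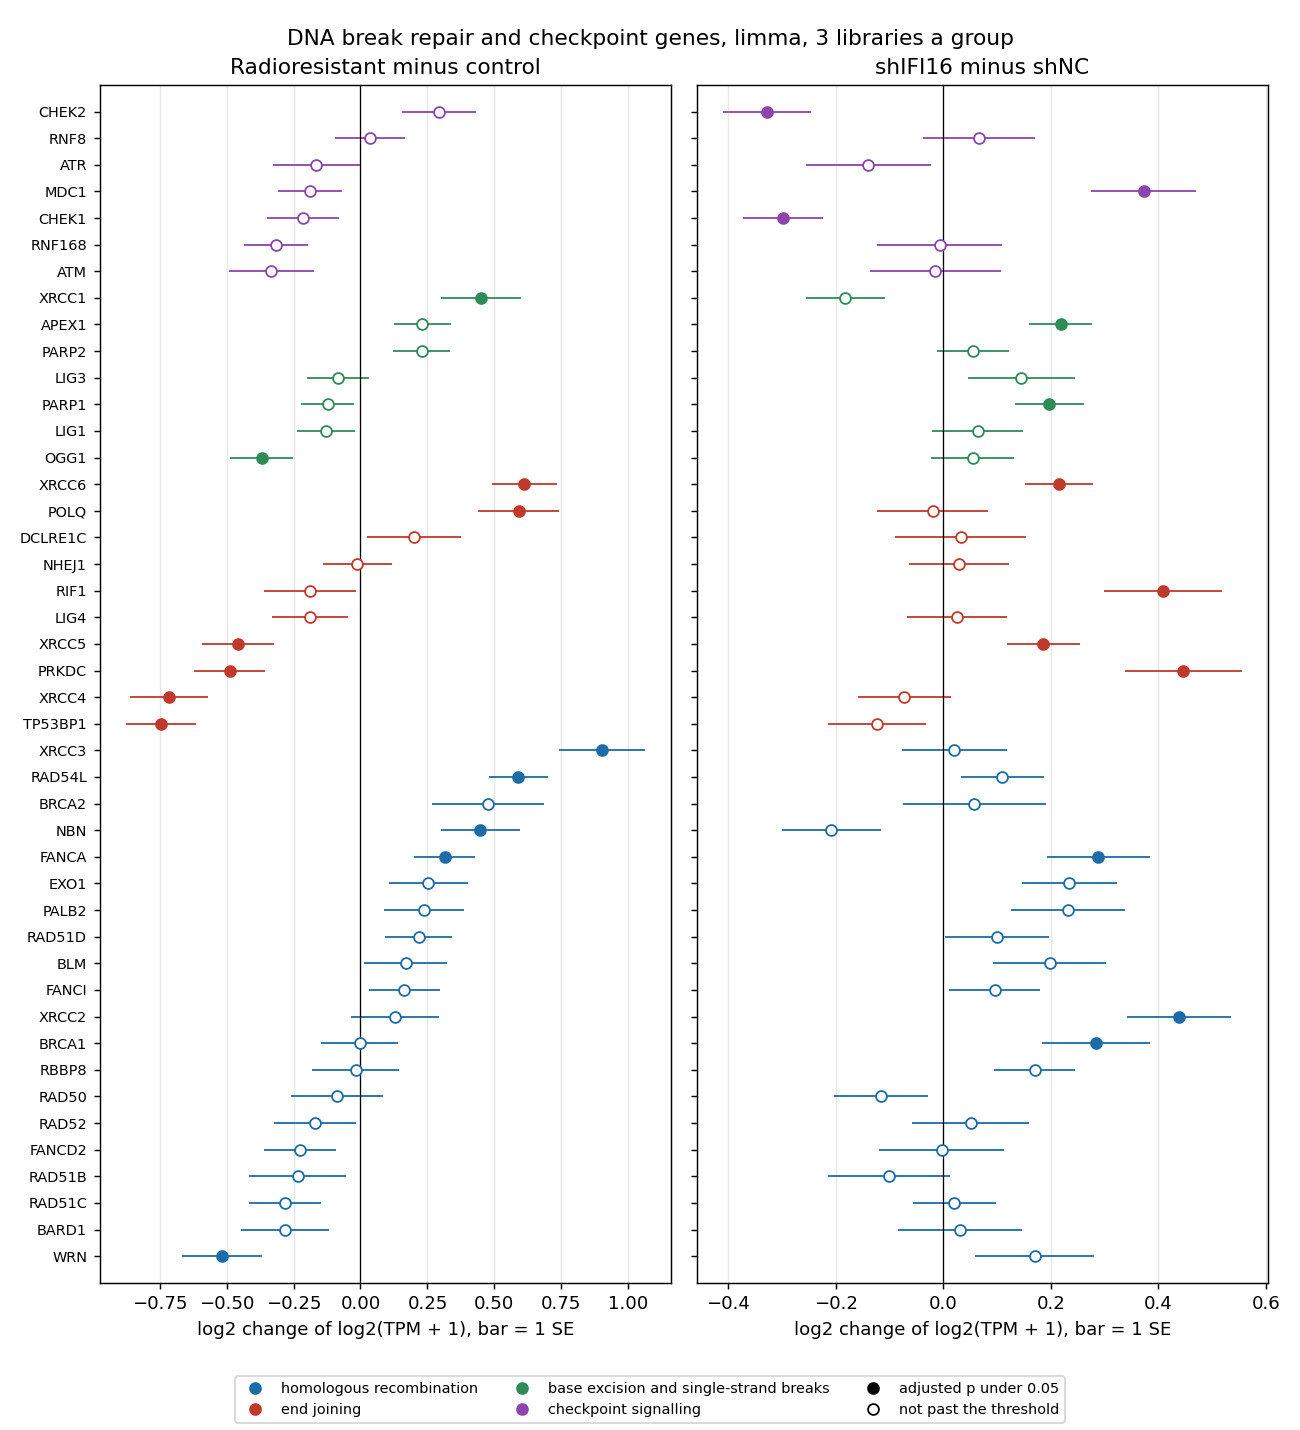
Points give the log2 change of each of the 44 genes with bars of 1 SE, radioresistant minus control on the left and shIFI16 minus shNC on the right, coloured by role and filled where the limma adjusted p is under 0.05. On the left the end joining genes run from TP53BP1 at -0.75 to XRCC6 at 0.61, and on the right CHEK2 and CHEK1 are the filled points below 0.

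Of the 20 homologous recombination genes 4 rose and 1 fell in radioresistant cells, beside 16.9% and 27.0% of all tested genes. The median change was 0.15, beside -0.11 over all tested genes. XRCC3, a homologous recombination protein that works in a complex with RAD51C (chromosome 14, 103697617 to 103715451), had the largest rise of the 44. It stood at 17.2, 19.8 and 26.5 TPM in control and at 39.6, 36.3 and 43.5 TPM in radioresistant libraries. Every radioresistant library lay above every control library, although control replicate 3 was the highest control here. The rise was 0.90 on the log2 scale (SE 0.16, limma adjusted p = 0.0012). KLC1, which shares 3928 bases with XRCC3, fell by 0.40 (limma adjusted p = 0.017), so the neighbour moved the other way. Whether reads were counted by strand is not given in the sources used here, and values of overlapping genes are uncertain for that reason.

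RAD54L, the motor protein that remodels DNA during strand invasion (chromosome 1, 46247688 to 46278473), stood at 30.6, 29.0 and 29.2 TPM in control and 43.2, 46.2 and 45.8 TPM in radioresistant libraries. Both groups were tight, and the rise was 0.59 (SE 0.11, limma adjusted p = 0.0016). LRRC41, which overlaps it by 1012 bases, had -0.16 (limma adjusted p = 0.22). NBN, the signalling subunit of the MRE11 complex that first binds breaks, stood at 46.4, 43.96 and 34.1 TPM in control and 50.7, 64.8 and 54.9 TPM in radioresistant libraries. Its lowest radioresistant value lay above its highest control value, and it rose by 0.45 (SE 0.15, limma adjusted p = 0.030). FANCA, of the Fanconi core complex that marks crosslinks, stood at 22.7, 22.6 and 22.2 TPM in control and 27.0, 28.4 and 29.4 TPM in radioresistant libraries. The rise of FANCA was 0.31 (SE 0.11, limma adjusted p = 0.044), and its overlapping neighbour ZNF276 rose by 0.36 (limma adjusted p = 0.049). WRN, a RecQ helicase mutated in Werner syndrome, fell from 13.8, 12.6 and 10.46 TPM to 7.20, 9.29 and 8.32 TPM, with no overlap between groups (-0.52, SE 0.15, limma adjusted p = 0.017).

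NBN, FANCA and WRN lost their calls when some single libraries were left out, which also left fewer libraries to test. With each library left out in turn the change ran from 0.32 to 0.53 for NBN. It ran from 0.29 to 0.34 for FANCA and from -0.62 to -0.43 for WRN. NBN lost its call without control replicate 2 (limma adjusted p = 0.056), radioresistant replicate 2 (0.11) or radioresistant replicate 3 (0.077), and with no filter on low values (0.062). WRN lost it without control replicate 1 (0.062), control replicate 2 (0.070) or radioresistant replicate 1 (0.079). FANCA lost it without any of control replicates 1 and 2 or radioresistant replicates 1, 2 and 3 (limma adjusted p = 0.088 to 0.15), and with a replicate block (0.067). XRCC3 and RAD54L kept theirs under all 12 alternatives.

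BRCA1 and BRCA2 themselves were not called. BRCA1, the ubiquitin ligase that promotes end trimming and recombination, stood at 41.4, 38.0 and 30.8 TPM in control and 32.7, 40.8 and 36.1 TPM in radioresistant libraries, with overlapping groups (0.00 after rounding, SE 0.14, limma adjusted p = 0.99). BRCA2, which prepares single strands for strand invasion, stood at 8.27, 8.35 and 4.52 TPM in control and 9.25, 11.6 and 8.98 TPM in radioresistant libraries. Its groups did not overlap, but control replicate 3 was far under the other control libraries, and the change of 0.48 (SE 0.21) had a limma adjusted p = 0.088. Without control replicate 1 the BRCA2 change was 0.60 (limma adjusted p = 0.044). It was also called with either other scaling and with a replicate block. With each library left out in turn, however, the BRCA2 change ran from 0.22 to 0.60. Its limma adjusted p reached 0.23 among the 12 alternatives. XRCC2, which works in a complex with RAD51D, stood at 27.2, 26.6 and 18.8 TPM in control and 22.6, 28.3 and 28.3 TPM in radioresistant libraries and was not called (0.13, limma adjusted p = 0.54). The other 12 recombination genes that were not called (BARD1, PALB2, RAD50, RBBP8, EXO1, RAD51B, RAD51C, RAD51D, RAD52, BLM, FANCD2 and FANCI) had changes between -0.28 (BARD1) and 0.25 (EXO1). Leaving out control replicate 3 brought BARD1 (-0.45, limma adjusted p = 0.0074), RAD51C (-0.41, 0.0045) and FANCD2 (-0.31, 0.040) past the threshold.

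Of the 10 end joining genes 4 fell and 2 rose, beside 27.0% and 16.9% of all tested genes. The median change was -0.19, beside -0.11 over all tested genes, with no test between roles. The falls were 2 without control replicate 2 or radioresistant replicate 1 and 6 without control replicate 3, and those among recombination genes were then 0, 0 and 4. TP53BP1, the chromatin reader that shields broken ends (chromosome 15, 43403061 to 43510640), stood at 39.4, 39.0 and 34.6 TPM in control and 22.7, 24.6 and 19.2 TPM in radioresistant libraries. The lowest control value lay well above the highest radioresistant value, and the fall was 0.75 on the log2 scale (SE 0.13, limma adjusted p = 0.0011). TUBGCP4, which shares 6711 bases with TP53BP1, had 0.15 (limma adjusted p = 0.34). XRCC4, the scaffold of the ligase that seals ends (chromosome 5, 83077547 to 83374473), stood at 37.6, 40.8 and 30.5 TPM in control and 20.6, 24.6 and 19.8 TPM in radioresistant libraries. XRCC4 fell by 0.72 (SE 0.14, limma adjusted p = 0.0026), again with no overlap. LIG4, the ligase it carries, stood at 33.9, 31.6 and 25.2 TPM in control and 24.9, 29.4 and 24.6 TPM in radioresistant libraries. Those ranges overlapped and LIG4 was not called (-0.19, SE 0.14, limma adjusted p = 0.31), though without control replicate 3 it was (-0.31, limma adjusted p = 0.044).

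The Ku subunits moved in opposite directions. XRCC6, the smaller Ku subunit (chromosome 22, 41621295 to 41664041), was the most abundant of the 44 transcripts, at 748, 646 and 572 TPM in control and 929.7, 1051 and 1012 TPM in radioresistant libraries. It rose by 0.61 (SE 0.12, limma adjusted p = 0.0023). XRCC5, its obligate partner (chromosome 2, 216109348 to 216206293), stood at 434, 403 and 320.5 TPM in control and 250.8, 306 and 281 TPM in radioresistant libraries. It fell by 0.46 (SE 0.13, limma adjusted p = 0.018). PRKDC, the catalytic subunit of the kinase that Ku recruits, stood at 141, 139 and 109 TPM in control and 81.2, 99.8 and 94.4 TPM in radioresistant libraries and fell by 0.49 (SE 0.13, limma adjusted p = 0.013). For XRCC5 and PRKDC the highest radioresistant value lay just under control replicate 3, the lowest control. PRKDC lost its call without control replicate 2 (limma adjusted p = 0.065) or radioresistant replicate 1 (0.059). XRCC5 lost its call without control replicate 1 (0.055), control replicate 2 (0.074), radioresistant replicate 1 (0.072) or radioresistant replicate 3 (0.059). XRCC6, XRCC4, TP53BP1 and POLQ kept theirs under all 12 alternatives.

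POLQ, the polymerase of microhomology-mediated joining, stood at 12.5, 11.8 and 8.82 TPM in control and 15.7, 18.6 and 16.7 TPM in radioresistant libraries. All radioresistant libraries were higher, and it rose by 0.59 (SE 0.15, limma adjusted p = 0.0096). RIF1, which acts with TP53BP1 at ends, stood at 34.6, 33.2 and 22.9 TPM in control and 23.6, 30.6 and 24.5 TPM in radioresistant libraries and was not called (-0.19, limma adjusted p = 0.40), but was without control replicate 3 (-0.37, limma adjusted p = 0.023). NHEJ1, which lines up the ends beside XRCC4, had -0.01 and the nuclease DCLRE1C had 0.20, neither called.

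**Figure D3:**
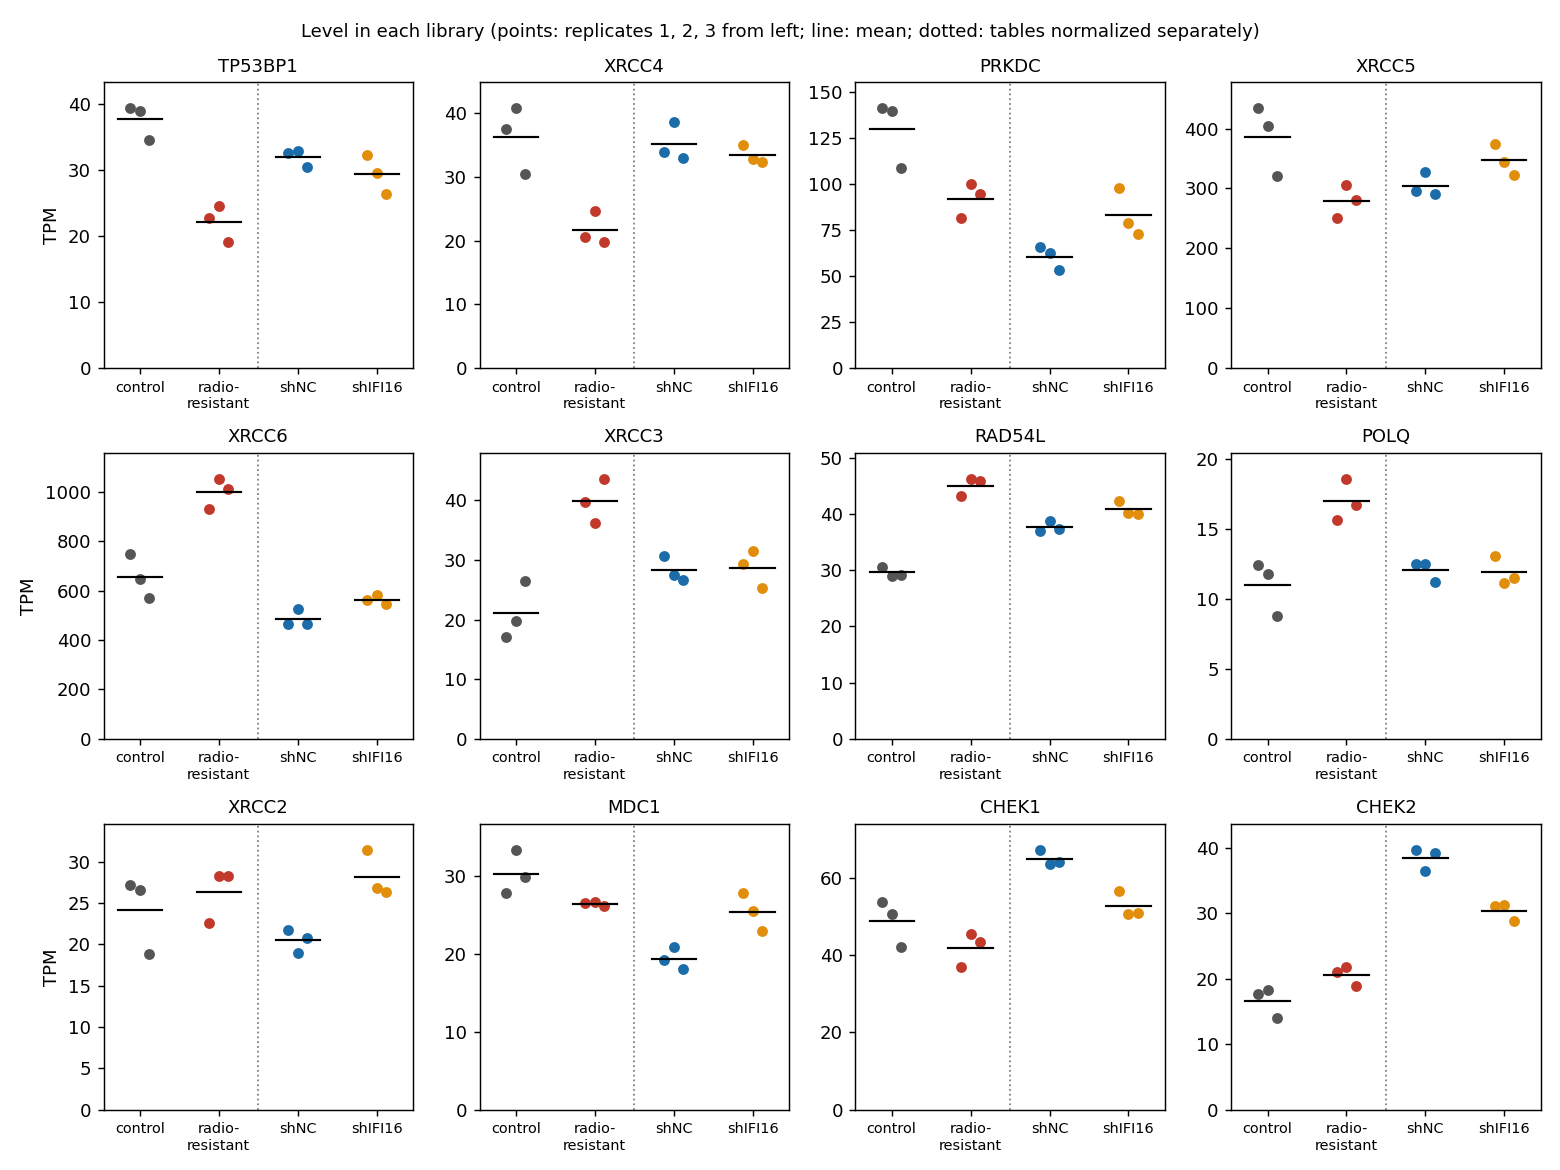
Points are the TPM of 12 genes in replicates 1, 2 and 3 of each group, lines are group means, and the dotted line parts the 2 tables, which were normalized separately. TP53BP1, XRCC4, PRKDC and XRCC5 are lower and XRCC6, XRCC3, RAD54L and POLQ higher in radioresistant than in control libraries, and CHEK1 and CHEK2 are lower with shIFI16 than with shNC.

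Among the 7 genes of base excision and single-strand breaks 1 rose and 1 fell in radioresistant cells, beside 16.9% and 27.0% of all tested genes. The median change was -0.08, beside -0.11 over all tested genes. XRCC1, the scaffold of nick repair, stood at 36.7, 43.8 and 53.3 TPM in control and 67.0, 54.4 and 61.1 TPM in radioresistant libraries. The groups nearly touched, because control replicate 3 was the highest control, and the rise was 0.45 (SE 0.15, limma adjusted p = 0.031). PINLYP, which shares 19 bases with XRCC1, rose by 0.84 (limma adjusted p = 0.0046). OGG1, the glycosylase for oxidised guanine, stood at 37.6, 36.9 and 42.5 TPM in control and 28.7, 29.8 and 31.2 TPM in radioresistant libraries and fell by 0.37 (SE 0.12, limma adjusted p = 0.025). Both genes that overlap OGG1 fell too, CAMK1 by 0.41 (limma adjusted p = 0.024) and TADA3 by 0.98 (5.9e-05), and their part in the OGG1 value was not tested. XRCC1 lost its call without control replicate 1 (limma adjusted p = 0.10), control replicate 2 (0.087), radioresistant replicate 1 (0.12) or radioresistant replicate 3 (0.096), and with no filter on low values (0.065). OGG1 lost its call without control replicate 2 (0.068) or any of radioresistant replicates 1 (0.095), 2 (0.070) and 3 (0.054), and with median-ratio scaling (0.12) and quantile normalization (0.083).

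PARP1, the sensor of strand breaks that builds poly(ADP-ribose), stood at 202, 199 and 188 TPM in control and 172, 183 and 185 TPM in radioresistant libraries. Its groups did not overlap, yet the difference was small and not called (-0.12, SE 0.10, limma adjusted p = 0.33), and it was 0.0021 with median-ratio scaling. APEX1, the nuclease that cuts at lost bases, stood at 152, 159.7 and 170.0 TPM in control and 188, 174 and 205 TPM in radioresistant libraries and missed the threshold (0.23, limma adjusted p = 0.10). Without control replicate 3 APEX1 passed (0.27, limma adjusted p = 0.039). PARP2, LIG1 and LIG3 had changes between -0.13 and 0.23 and were not called.

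None of the 7 checkpoint genes was called in radioresistant cells by limma at the adjusted threshold, and only RNF168 had an unadjusted p under 0.05 (0.024). Their median change was -0.19, beside -0.11 over all tested genes, of which 43.9% were called. ATM, the kinase that answers to double-strand breaks, stood at 23.7, 22.9 and 17.1 TPM in control and 15.2, 19.3 and 15.2 TPM in radioresistant libraries (-0.33, SE 0.16, limma adjusted p = 0.11). ATR, the kinase that answers to single-stranded DNA, stood at 19.4, 16.5 and 12.8 TPM in control and 12.9, 15.9 and 13.8 TPM in radioresistant libraries (-0.17, limma adjusted p = 0.43). For ATM radioresistant replicate 2 lay within the control range, and for ATR all 3 radioresistant libraries did. CHEK1, the target of ATR, stood at 53.8, 50.6 and 42.2 TPM in control and 36.8, 45.4 and 43.4 TPM in radioresistant libraries (-0.22, limma adjusted p = 0.22). CHEK2, the target of ATM, stood at 17.7, 18.2 and 14.0 TPM in control and 21.0, 21.7 and 18.8 TPM in radioresistant libraries (0.29, limma adjusted p = 0.11). CHEK2 alone of these had every radioresistant value above every control value. It was called with median-ratio scaling (0.41, limma adjusted p = 0.014) and quantile normalization (0.39, 0.018). With each library left out in turn its change ran from 0.18 to 0.36. Its limma adjusted p reached 0.26 among the 12 alternatives. MDC1, the platform on marked chromatin, stood at 27.8, 33.3 and 29.8 TPM in control and 26.6, 26.6 and 26.1 TPM in radioresistant libraries (-0.19, limma adjusted p = 0.22). The ubiquitin ligases RNF168 and RNF8 had -0.31 (limma adjusted p = 0.054) and 0.03 (0.85). Without control replicate 3, ATM (-0.48, limma adjusted p = 0.0064), CHEK1 (-0.32, 0.034) and RNF168 (-0.38, 0.011) fell past the threshold.

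Over all 44 genes, leaving out control replicate 3 gave 8 rises and 14 falls in place of 7 and 6. The 8 added falls were BARD1, RAD51C, FANCD2, LIG4, RIF1, ATM, CHEK1 and RNF168, and the added rise was APEX1. Without control replicate 2 there were 4 rises and 2 falls, without radioresistant replicate 1 there were 2 falls, and without radioresistant replicate 3 there were 4 rises. No called gene changed sign under any of the 12 alternatives.

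The ratio of 2 transcripts within a library is unchanged by 1 scale factor for that library, though quantile normalization can change it. It was compared for 6 pairs of partner subunits in each comparison, 12 ratios in all, and the pairs were chosen after their values had been seen. With 3 libraries a group an exact two-sided permutation test cannot give less than p = 0.1, so none could pass, and adjusted values are over the 12. XRCC6 to XRCC5 was 1.72, 1.60 and 1.78 in control and 3.71, 3.43 and 3.60 in radioresistant libraries, a difference of 1.07 on the log2 scale (exact permutation p = 0.1, adjusted 0.15). The mean ratio was 1.70 ± 0.0934 in control and 3.58 ± 0.14 in radioresistant libraries (SD, n = 3 each), far apart beside that spread. XRCC4 to LIG4 went from 1.11, 1.29 and 1.21 to 0.825, 0.837 and 0.802. NBN to RAD50, its partner in the MRE11 complex, went from 1.12, 1.04 and 1.17 to 1.59, 1.53 and 1.74. FANCI to FANCD2, the pair that the Fanconi core complex ubiquitylates, went from 1.59, 1.61 and 1.57 to 2.02, 2.101 and 2.17. BRCA1 to BARD1, partners in a ubiquitin ligase, went from 1.78, 1.67 and 1.95 to 2.19, 2.21 and 2.21. RAD51C to XRCC3, which form a heterodimer, went from 6.68, 5.30 and 3.17 to 1.90, 2.43 and 1.92. The control and radioresistant ratios did not overlap in any of these 6 pairs (exact permutation p = 0.1 each), as in 570 (60.3%) of all 946 pairs that can be formed from the 44 genes, so a lack of overlap is not particular to partners.

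In the hairpin libraries, measured in the other table, XRCC6 to XRCC5 was 1.58, 1.61 and 1.60 with shNC and 1.51, 1.69 and 1.69 with shIFI16 (exact permutation p = 0.6, adjusted 0.66). These ratios lay near those of the control libraries, although the hairpin cells are labelled radioresistant. No test was made across the tables, which were normalized separately. XRCC4 to LIG4 was 1.43, 1.64 and 1.49 with shNC, above the range of both groups of the first table, and 1.36, 1.39 and 1.49 with shIFI16. NBN to RAD50 was 0.753, 0.735 and 0.726 with shNC, under every value of the first table, and 0.675, 0.709 and 0.685 with shIFI16 (exact permutation p = 0.1). BRCA1 to BARD1 was 2.29, 1.84 and 2.32 with shNC and 2.51, 2.49 and 2.69 with shIFI16 (exact permutation p = 0.1). FANCI to FANCD2 and RAD51C to XRCC3 overlapped between the hairpins. With shNC FANCI to FANCD2 was 1.495, 1.71 and 1.51, under every radioresistant library. RAD51C to XRCC3 was 1.94, 2.38 and 2.36 with shNC, within the radioresistant range and under every control library. The hairpin groups did not overlap in 440 (46.5%) of all 946 pairs, so this is not particular to NBN to RAD50 and BRCA1 to BARD1.

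**Figure D4:**
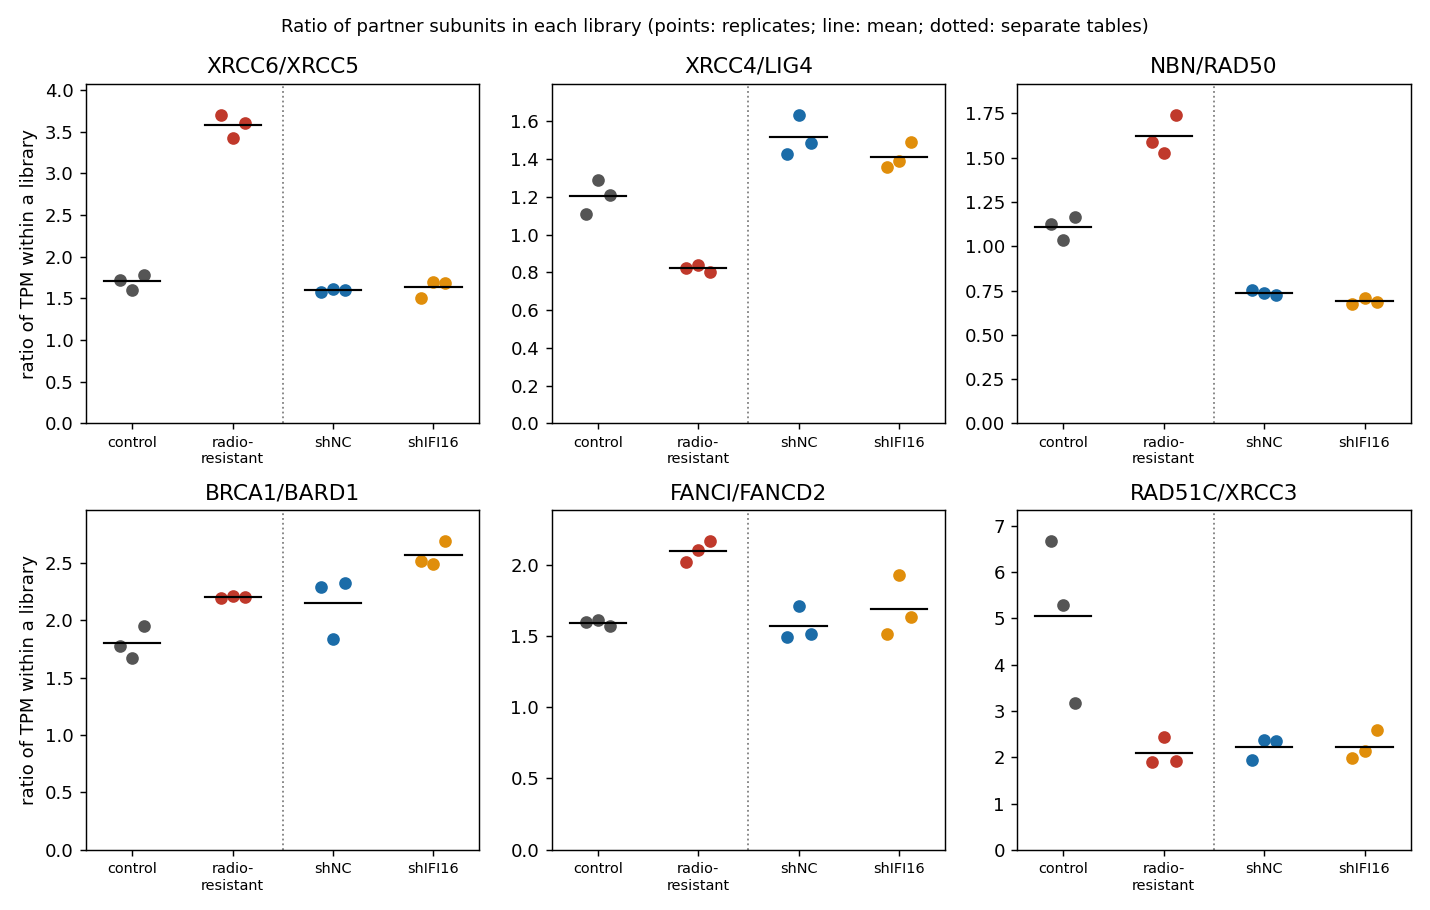
Points are the ratio of 2 TPM values within a library (vertical axis) in each of the 4 groups for 6 pairs of partner subunits, lines are group means, and the dotted line parts the tables. The XRCC6 to XRCC5 ratio is 3.43 to 3.71 in radioresistant libraries and 1.51 to 1.78 in the other 3 groups.

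With shIFI16 in place of shNC more of these genes rose than fell, by small amounts. XRCC2, PRKDC, RIF1 and MDC1 rose by 0.37 to 0.45 on the log2 scale, and the checkpoint kinase genes CHEK2 and CHEK1 fell by 0.33 and 0.30. In all, 10 of the 44 genes rose (XRCC2, PRKDC, MDC1, RIF1, APEX1, XRCC6, PARP1, FANCA, BRCA1 and XRCC5), against 16.6% of the 12567 tested genes, and 2 fell, against 16.3%. Together 27.3% were called, against a background of 32.9%. The hairpin groups did not overlap for 15 genes that were higher and 4 that were lower with shIFI16, beside 23.4% and 21.4% of all tested genes. All 44 passed the filter on low values, and their median change was 0.06 beside 0.03 over all tested genes. By role, 3 of 20 recombination genes, 4 of 10 end joining genes, 2 of 7 base excision genes and 1 of 7 checkpoint genes rose, and the 2 falls were checkpoint genes. Without shNC replicate 3, the lowest shNC library for 29 genes, 4 rose, and without shIFI16 replicate 2, 5 rose. With no filter on low values 6 rose.

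Both checkpoint kinases were lower in every shIFI16 library than in any shNC library. CHEK2 (chromosome 22, 28687742 to 28741834) stood at 39.6, 36.4 and 39.1 TPM with shNC and 31.1, 31.2 and 28.8 TPM with shIFI16 (-0.33, SE 0.08, limma adjusted p = 0.0060). CHEK1 (chromosome 11, 125625136 to 125681124) stood at 67.1, 63.6 and 64.2 TPM with shNC and 56.7, 50.6 and 51.0 TPM with shIFI16 (-0.30, SE 0.07, limma adjusted p = 0.0061). Their calls held under all 12 alternatives. CHEK2 and XRCC6 are among 8 of the 44 genes with RefSeq pseudogenes of their own name. Of those 20 pseudogenes 2 were listed in the tables, at or under 0.109 TPM, and how reads shared by such copies were counted is not given in the sources used here. MDC1 moved the other way, from 19.1, 20.9 and 18.1 TPM to 27.9, 25.5 and 22.9 TPM (0.37, SE 0.10, limma adjusted p = 0.0083), with no overlap, and kept its call as well. The upstream kinases were not called. ATM stood at 12.8, 11.8 and 10.4 TPM with shNC and 13.9, 10.4 and 10.4 TPM with shIFI16 (-0.01, SE 0.12, limma adjusted p = 0.94). ATR stood at 12.2, 11.8 and 10.0 TPM with shNC and 11.9, 9.39 and 9.36 TPM with shIFI16 (-0.14, SE 0.12, limma adjusted p = 0.39). RNF8 and RNF168 had 0.07 and -0.01.

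Of the recombination genes XRCC2 (chromosome 7, 152644776 to 152676141) had the strongest rise. It stood at 21.8, 18.9 and 20.8 TPM with shNC and 31.4, 26.8 and 26.3 TPM with shIFI16 (0.44, SE 0.10, limma adjusted p = 0.0025). Every shIFI16 library was higher, and the call held under all 12 alternatives. FANCA stood at 22.9, 22.1 and 19.1 TPM with shNC and 26.8, 24.4 and 27.6 TPM with shIFI16 (0.29, SE 0.10, limma adjusted p = 0.030). BRCA1 stood at 23.8, 20.2 and 20.9 TPM with shNC and 29.9, 24.7 and 25.3 TPM with shIFI16 (0.28, SE 0.10, limma adjusted p = 0.038). Both groups of both genes were apart, but the calls did not last. FANCA lost its call without shNC replicate 2 (limma adjusted p = 0.057), shNC replicate 3 (0.17) or shIFI16 replicate 3 (0.070), and with no filter (0.067). BRCA1 lost its call without shNC replicate 2 (0.15), shNC replicate 3 (0.11), shIFI16 replicate 1 (0.12) or shIFI16 replicate 2 (0.051), and with no filter (0.090). BRCA2 stood at 5.50, 5.54 and 4.61 TPM with shNC and 6.73, 5.14 and 4.67 TPM with shIFI16 and was not called (0.06, SE 0.13, limma adjusted p = 0.77).

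XRCC3, RAD54L and NBN, which rose in radioresistant cells, were not called here. XRCC3 stood at 30.6, 27.5 and 26.6 TPM with shNC and 29.3, 31.5 and 25.3 TPM with shIFI16 (0.02, limma adjusted p = 0.89). RAD54L stood at 37.0, 38.8 and 37.4 TPM with shNC and 42.3, 40.1 and 40.0 TPM with shIFI16, apart but by little (0.11, limma adjusted p = 0.30). NBN stood at 27.0, 27.9 and 24.2 TPM with shNC and 24.1, 22.5 and 21.3 TPM with shIFI16, every shIFI16 library being lower (-0.21, limma adjusted p = 0.095). NBN was called with median-ratio scaling (-0.23, limma adjusted p = 0.019), with quantile normalization (-0.22, 0.021), with a replicate block (0.024) and without shIFI16 replicate 1 (-0.25, 0.042). WRN stood at 7.80, 8.23 and 7.003 TPM with shNC and 9.69, 8.29 and 8.33 TPM with shIFI16 (0.17, limma adjusted p = 0.26). The other 12 recombination genes that were not called ran from -0.12 (RAD50) to 0.23 (EXO1, limma adjusted p = 0.052), and EXO1 passed without shIFI16 replicate 3 (0.31, limma adjusted p = 0.013), with either other scaling (0.024 and 0.015) and with a replicate block (0.0077).

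Among end joining genes PRKDC (chromosome 8, 47773111 to 47960136) rose most. It stood at 65.8, 62.2 and 53.3 TPM with shNC and 97.7, 78.9 and 72.6 TPM with shIFI16, every shIFI16 library being higher (0.45, SE 0.11, limma adjusted p = 0.0078), and its call held under all 12 alternatives. RIF1 stood at 18.1, 18.5 and 15.2 TPM with shNC and 26.7, 22.5 and 20.6 TPM with shIFI16 (0.41, SE 0.11, limma adjusted p = 0.0096), and missed the threshold without shNC replicate 3 (0.32, limma adjusted p = 0.051). The Ku genes rose together here. XRCC6 stood at 466, 525 and 467 TPM with shNC and 564, 583 and 545 TPM with shIFI16 (0.22, SE 0.06, limma adjusted p = 0.015). XRCC5 stood at 296, 327 and 291 TPM with shNC and 374, 344 and 323 TPM with shIFI16 (0.19, SE 0.07, limma adjusted p = 0.045), and shIFI16 replicate 3 lay under shNC replicate 2. XRCC6 lost its call without shNC replicate 3 (limma adjusted p = 0.067) or shIFI16 replicate 2 (0.086) and with median-ratio scaling (0.072). XRCC5 lost it without shNC replicates 1 (0.11) or 3 (0.16), shIFI16 replicates 1 (0.15) or 2 (0.11), with no filter (0.11), with median-ratio scaling (0.078) and with moderation that was not robust (0.065).

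The genes with the strongest falls in radioresistant cells were not called in the knockdown. TP53BP1 stood at 32.6, 32.8 and 30.5 TPM with shNC and 32.3, 29.6 and 26.3 TPM with shIFI16 (-0.12, SE 0.09, limma adjusted p = 0.33). XRCC4 stood at 34.0, 38.6 and 33.0 TPM with shNC and 35.0, 32.8 and 32.3 TPM with shIFI16 (-0.07, SE 0.09, limma adjusted p = 0.56). In both genes the hairpin groups overlapped. LIG4 stood at 23.8, 23.6 and 22.2 TPM with shNC and 25.8, 23.6 and 21.7 TPM with shIFI16 (0.03, limma adjusted p = 0.86), and POLQ at 12.5, 12.5 and 11.2 TPM and 13.1, 11.1 and 11.5 TPM (-0.02, limma adjusted p = 0.91). NHEJ1 and DCLRE1C both had 0.03.

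Of the base excision genes APEX1 and PARP1 rose. APEX1 (chromosome 14, 20455226 to 20457767) stood at 204, 217 and 208 TPM with shNC and 241, 253 and 239 TPM with shIFI16 (0.22, SE 0.06, limma adjusted p = 0.0096). PARP1 (chromosome 1, 226360691 to 226408093) stood at 197, 199 and 177 TPM with shNC and 229, 219.5 and 209 TPM with shIFI16 (0.20, SE 0.06, limma adjusted p = 0.028). Neither gene's groups overlapped. APEX1 missed the threshold without shIFI16 replicate 2 (limma adjusted p = 0.072), and PARP1 without shNC replicate 3 (0.16), shIFI16 replicate 1 (0.072) or shIFI16 replicate 2 (0.092) and with no filter (0.066). XRCC1 stood at 62.7, 60.8 and 57.4 TPM with shNC and 54.2, 54.2 and 50.7 TPM with shIFI16, lower in every shIFI16 library, and was not called (-0.18, limma adjusted p = 0.068), though it was with either other scaling (limma adjusted p = 0.017 and 0.020) and with a replicate block (0.019). OGG1 stood at 41.7, 44.1 and 42.4 TPM with shNC and 43.9, 46.7 and 42.7 TPM with shIFI16 (0.05, limma adjusted p = 0.63). PARP2, LIG1 and LIG3 ran from 0.06 to 0.15.

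Set side by side, the comparisons called 21 of the 44 genes in at least 1 and 23 in neither. The 4 genes called in both were PRKDC and XRCC5, lower in radioresistant than in control and higher with shIFI16 than with shNC, and XRCC6 and FANCA, higher in both. They were 9.09% of the 44, beside 16.3% of the 12359 genes tested in both comparisons. They made up 30.8% of the 44 genes' calls in radioresistant cells and 33.3% of those in the knockdown, beside 38.0% and 49.7% over all genes tested in both. Each of the 4 lost at least 1 of its 2 calls under an alternative: PRKDC in radioresistant cells, XRCC6 in the knockdown, and XRCC5 and FANCA in both. The changes of 20 genes (45.5%) had opposite signs in the comparisons, beside 51.7% of all genes tested in both, and those of 24 the same sign, with no test of either count. PRKDC was the clearest of the opposite cases, at -0.49 and 0.45. PRKDC with shIFI16, at 72.6 to 97.7 TPM, overlapped the radioresistant libraries of the other table (81.2 to 99.9 TPM), and with shNC, at 53.3 to 65.8 TPM, lay under all of them, though the tables were normalized separately and this was not tested.

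**Figure D5:**
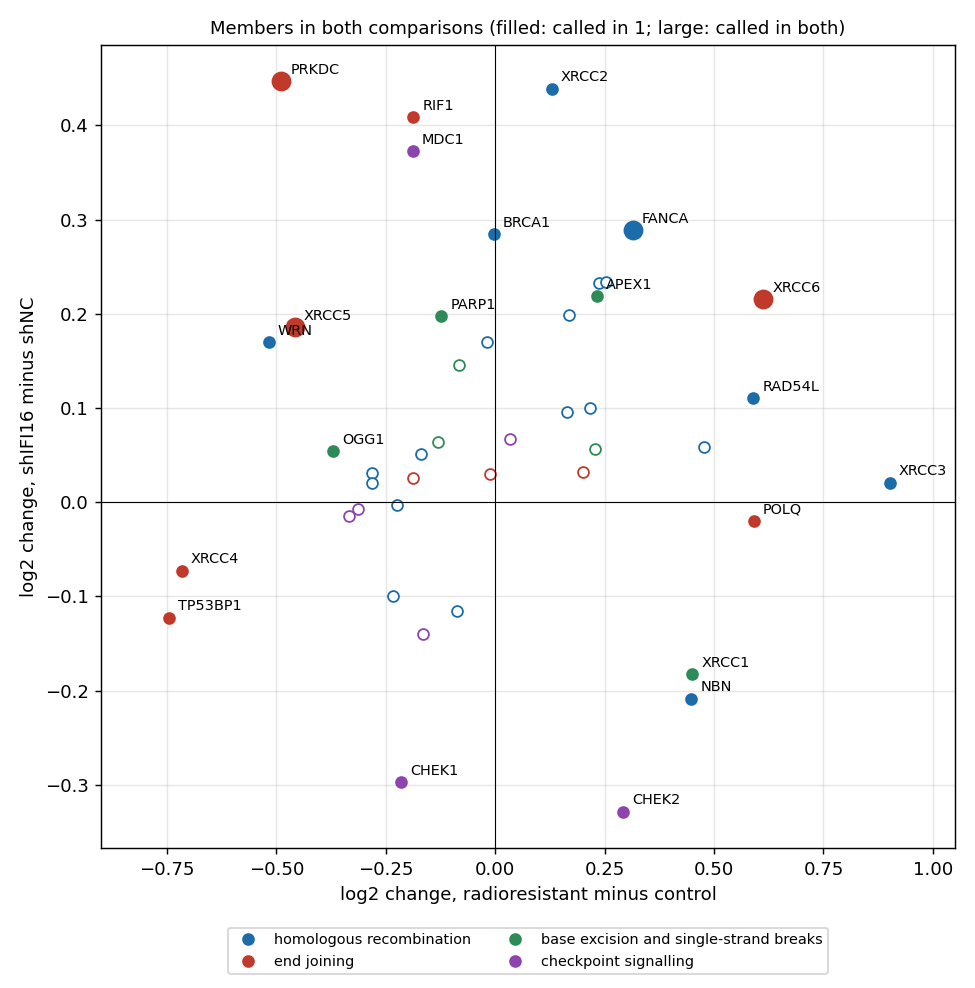
Each point is 1 of the 44 genes, with its log2 change of radioresistant minus control on the horizontal axis and of shIFI16 minus shNC on the vertical axis, coloured by role. Large filled points mark PRKDC and XRCC5, at the upper left, and FANCA and XRCC6, at the upper right, which were called in both comparisons.

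Levels of the 44 genes spanned a wide range in each group. Group means ran from 6.26 to 656 TPM in control (median 30.3), 5.13 to 998 TPM in radioresistant (26.4), 5.18 to 486 TPM with shNC (24.8) and 5.34 to 564 TPM with shIFI16 (27.4). XRCC6 was the highest of the 44 in each group, followed by XRCC5 and then by APEX1 and PARP1, which stood close together. Near the other end, the group means of DCLRE1C ran from 5.18 to 7.83 TPM and those of RAD52 from 6.05 to 7.53 TPM.

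Genes of the same pathways outside the 44 also included rises and falls in radioresistant cells, beside the 16.9% and 27.0% of all tested genes that rose and fell. Of 28 other recombination and Fanconi genes 2 rose and 2 fell (median 0.01). RPA1, which coats single strands, fell by 0.70 (144 ± 11.2 to 88.1 ± 5.83 TPM, mean ± SD, n = 3, limma adjusted p = 5.4e-04). RAD51AP1, an accessory protein of strand invasion, rose by 0.68 (limma adjusted p = 0.0023) and the nuclease gene MUS81 by 0.57 (0.011). Of 11 other end joining genes 1 rose, the shieldin subunit gene MAD2L2 (0.52, limma adjusted p = 0.0031), and 3 fell (APLF by 0.52, TDP1 by 0.36 and APTX by 0.33), with a median of -0.17. APLF lost the call without control replicates 1 or 2 or radioresistant replicates 1 or 3 (limma adjusted p = 0.052 to 0.092), and APTX and TDP1 without any of these or radioresistant replicate 2 (0.055 to 0.18). Both APTX and TDP1 also lost it with median-ratio scaling, quantile normalization and a replicate block (limma adjusted p = 0.051 to 0.13), and TDP1 with no filter (0.061) and with moderation that was not robust (0.052). Of 17 other base excision genes, which include APTX and TDP1 again, 2 rose and 5 fell (median -0.16). The glycosylase genes NEIL1 and NEIL2 fell by 0.99 and 0.58 and the repair polymerase POLB by 0.53, while the flap nuclease FEN1 rose by 0.56 (limma adjusted p = 0.0028). NEIL1 was a low transcript, at 2.235 to 3.45 TPM in control and 0.625 to 1.17 TPM in radioresistant libraries. APLF was low too, at 2.22 to 2.89 TPM in control and 1.28 to 1.67 TPM in radioresistant libraries. Of 20 other checkpoint genes 3 rose and 4 fell (median 0.01). CDC25A, the phosphatase that CHEK1 holds in check, rose by 1.09 (14.4 ± 0.567 to 32.1 ± 5.91 TPM, limma adjusted p = 1.9e-04), and ATRIP, which brings ATR to DNA, by 0.66 (0.0012). ETAA1 and TIMELESS, which also serve ATR signalling, fell by 0.79 and 0.44. These counts moved with single libraries. Without control replicate 3 the falls in the 4 lists were 5, 4, 7 and 6 and the rises 2, 3, 3 and 4. Without control replicate 2 the falls were 1, 0, 3 and 2, without radioresistant replicate 1 they were 1, 0, 3 and 2, and without radioresistant replicate 3 they were 2, 0, 3 and 2.

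With shIFI16, 16.6% of all tested genes rose and 16.3% fell. Of the 28 other recombination and Fanconi genes 7 rose and 3 fell (median 0.06). Without shNC replicate 3 or shIFI16 replicate 2 the rises were 3 and 2. RPA1 rose by 0.44 (68.5 ± 4.63 to 93.2 ± 7.69 TPM, limma adjusted p = 4.8e-04) and BRCC3, of the BRCA1-A complex, by 0.41 (7.8e-04), while BABAM1 of the same complex fell by 0.49 (1.2e-05) and RPA3 by 0.42 (0.0011). Of the other end joining genes 1 rose (TDP2 by 0.24, limma adjusted p = 0.057 without shIFI16 replicate 2) and 3 fell, among them POLM by 0.57 and MAD2L2 by 0.25. Of the other base excision genes 2 rose, the uracil glycosylase gene UNG by 0.55 (limma adjusted p = 1.6e-05) and FEN1 by 0.31, and 4 fell, among them SMUG1 by 0.57. Of the other checkpoint genes 3 rose (TIPIN by 0.62, CDC25A by 0.45 and PPM1D by 0.39) and 2 fell, among them the mitotic phosphatase gene CDC25C by 0.45 (limma adjusted p = 3.2e-04).

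Many of these genes are made mostly in S and G2 phase, so genes of S phase and mitosis are given beside them. Of 26 such genes 8 rose and 2 fell in radioresistant cells (median 0.16), beside 16.9% and 27.0% of all tested genes. CDT1 was up by 1.14, MCM5 by 0.58 and AURKA by 0.38, and MCM6 was down by 0.74. AURKA missed the threshold without control replicate 2 (limma adjusted p = 0.055), and 5 genes of this list rose without control replicate 2 or radioresistant replicate 2 and 3 without radioresistant replicate 3. With shIFI16, 9 rose and 6 fell (median 0.10), beside 16.6% and 16.3% of all tested genes. CCNE2 was up by 0.71, CDC6 by 0.48 and MCM4 by 0.47. CDK1 was down by 0.43 (224 ± 8.77 to 165 ± 4.50 TPM, limma adjusted p = 4.4e-05). The part of the cell cycle in the changes of the 44 genes was not tested.

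Open chromatin at these genes was described from 1 summit list a condition, with no replicate and no test. The control list held 2454 summits and the radioresistant list 12877. A summit lay within 1000 bases of a RefSeq start for 7 of the 39 genes with a start in the table (17.9%) in the control library, against 6.99% of all tested genes, and for 23 (59.0%) in the radioresistant library, against 38.1%. The lists differ in length for all genes, so more members in the second shows no change at these genes. Genes with a summit in both lists were EXO1, TP53BP1, RIF1, PARP2, OGG1 and CHEK1, and RBBP8 had it in the control list alone. At TP53BP1, whose transcript fell, the control summit lay at -74 from the start, inside the window shown above, with a score of 1.97, and the radioresistant summit at -386 with 5.45. The score is the authors' -log10 q-value within a list. In the radioresistant list XRCC6 had a summit at 3 bases after its start, XRCC4 at -228 and RAD54L at -557 from the nearer start. PARP2 had the highest score of these genes in that list, 12.7 at -303, beside 5.54 at -314 in the control list. XRCC3, XRCC2 and CHEK2, whose promoters are printed, had no summit in either list.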

How the data were processed

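RNA-seq of 12 libraries (3 a group) and ATAC-seq of 2 were used. The authors deposited 2 expression tables named as counts, whose columns each sum to 1000000 and are not whole numbers, so they were read as TPM, and for ATAC-seq 1 list of summits a library, whose deposited score is a -log10 q-value. Per the submitters' processing notes reads were handled on hg38 with featureCounts, TopHat, Cufflinks 2.2.1 and Trim Galore 0.6.6, and for ATAC-seq also with Bowtie2 2.2.5, SAMtools 1.10 and MACS2 2.1.4. The step that made the TPM, the annotation and any use of strand were not given in the sources used here.

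Groups come from the labels. The control columns share a prefix letter with the control ATAC-seq file, radioresistant columns likewise, and of the hairpin columns those with N were read as shNC. The 28 entries whose names had become dates (0.115 to 0.190% of a library) were left out. Genes that reached 1 TPM in 3 or more of 6 libraries were tested within their table by limma 3.58.1 (R 4.3.3) on log2(TPM + 1), with trend and robust moderation, and adjusted over all tested genes by Benjamini-Hochberg. The pseudocount of 1 understates changes of low genes. The fits were tested on simulated data.

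The members and lists were chosen with earlier results of these data known. Each library's values are given for members past the threshold in either comparison and for BRCA1, BRCA2, PRKDC, XRCC5, XRCC6, LIG4, TP53BP1, PARP1, XRCC1, ATM, ATR, CHEK1 and CHEK2. From other pathway lists up to 4 genes a comparison are named by smallest adjusted p, except that some genes named by this rule are not reported here. Of the 44 genes 34 overlap another RefSeq entry (GRCh38.p14). Neighbours are named where they were tested and shared bases with a gene called in radioresistant cells, with values from that comparison alone. Alternatives were another pseudocount (0.1), no low-value filter, median-ratio scaling, quantile normalization, a replicate block, moderation that was not robust and leaving out each library. TPM gives no counting error.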

Additional observations from a re-analysis of the deposited data

How the results depend on the processing

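Of the 13 genes called in radioresistant against control cells 6 kept the call under all 12 alternatives (RAD54L, XRCC3, XRCC6, XRCC4, TP53BP1 and POLQ) and 7 lost it under at least 1. Of the 31 not called, 15 were called under at least 1. In the knockdown 5 of 12 kept the call (XRCC2, PRKDC, CHEK1, CHEK2 and MDC1), 7 lost it and 5 of 32 others gained it. No called gene changed sign. TPM keeps no depth, so what depth limits could not be examined, and 3 libraries a group limit every test. Where a value moved, the cause was not tested. The alternatives for the other pathway lists and the partner ratios were chosen after seeing the data.

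In radioresistant cells 14 of the 44 rose under median-ratio scaling and 11 under quantile normalization, and the median change was 0.071 with median-ratio scaling. Of all called genes 38.5% were higher as deposited, 50.6% after median-ratio scaling and 47.1% after quantile normalization. With libraries left out the rises ran from 4 to 8, the falls from 2 to 14, the median from -0.12 to 0.01, and the calls over all genes from 1494 to 2743 higher and 2237 to 4395 lower. In the knockdown 6 of the 44 rose with no low-value filter, and 4 fell under median-ratio scaling, quantile normalization and the replicate block. With libraries left out the rises ran from 4 to 10, the falls from 2 to 3 and the rises over all genes from 1318 to 2310.

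Same-numbered libraries did not all deviate together. The correlations over all genes were -0.377, 0.245 and 0.081 in the first table and 0.215, 0.0881 and 0.0278 in the second, and not every library correlated best with its own number. With the replicate block 7 of the 44 rose and 6 fell in radioresistant cells (2110 and 3462 of all genes), and 13 rose and 4 fell in the knockdown (3001 and 2609).

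Sign changes were limited to genes that were not called. In radioresistant cells median-ratio scaling gave BRCA1 0.12, RAD50 0.0341, RBBP8 0.10, NHEJ1 0.10, PARP1 0.0021 and LIG3 0.0373, and quantile normalization gave BRCA1 0.10, RAD50 0.0113, RBBP8 0.0455, NHEJ1 0.10 and LIG3 0.0053. In the knockdown median-ratio scaling gave RAD51C -0.0006 and XRCC3 0. With libraries left out the radioresistant changes ran from -0.12 to 0.0860 for BRCA1, -0.19 to 0.0750 for RBBP8, -0.0764 to 0.0326 for NHEJ1, -0.26 to 0.0045 for RAD50, -0.0343 to 0.23 for XRCC2 and -0.0183 to 0.11 for RNF8. The knockdown changes ran from -0.0183 to 0.0813 for RAD51C, -0.16 to 0.0977 for FANCD2, -0.0848 to 0.0236 for POLQ, -0.14 to 0.0499 for ATM, -0.15 to 0.0662 for RNF168, -0.0717 to 0.15 for BRCA2, -0.0602 to 0.0942 for BARD1, -0.0467 to 0.11 for XRCC3, -0.0353 to 0.0853 for LIG4, -0.0490 to 0.11 for DCLRE1C and -0.0079 to 0.0922 for RAD52. Counts of genes with an ATAC-seq summit stayed within 1.5 times of those given with windows of 500 or 2000 bases. They also did so with scores at or above the median. The partner ratios were set against their spread between libraries as each library was left out. Leaving out 1 of 3 libraries cannot move a mean by that much, so this check could not fail. In radioresistant against control cells the log2 difference then ran from 1.03 to 1.11 for XRCC6 to XRCC5. For RAD51C to XRCC3 it ran from -1.52 to -0.98.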
